A study of Arabidopsis thaliana with 9 samples.

Results

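The circadian clock of Arabidopsis thaliana and its close outputs were described as a set of 32 genes out of the 32833 genes that the deposited tables list. Members were taken by gene identifier from a list of known clock genes: CCA1 and LHY, the REVEILLE (RVE) genes, the pseudo-response regulators (PRR) with TOC1, the evening complex, GI and the ZTL family, the LNK genes, CHE, the CDF genes, CO with COL1 and COL2, and the glycine-rich RNA-binding genes GRP7 and GRP8. Each was then given a class by the time of day at which its transcript usually peaks, which made 16 morning genes, 2 day genes (PRR7 and PRR5), 12 evening genes and 2 genes with a weak rhythm (ZTL and LKP2). All 32 passed the filter on low counts that left 20272 genes for testing.

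The plant clock is a ring of transcription factors that repress and activate each other over the day. In shoots, CCA1 and LHY accumulate around dawn and repress evening genes, the PRR proteins appear in turn from morning to evening and repress CCA1 and LHY, RVE8 and its relatives with the LNK coactivators switch on evening genes, and the evening complex of ELF3, ELF4 and LUX acts around nightfall. F-box proteins that sense blue light (ZTL, FKF1 and LKP2) and their partner GI set the stability of clock proteins, and the CDF and CO proteins carry the timing on to flowering. Roots have a clock of their own that is tied to the one in the shoot.

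RNA was sequenced from seedling roots in 9 libraries, 3 per group. By the study's methods, seedlings were treated at 4 to 5 days after transfer to the growth chamber, and roots were cut at 5 days. All 9 came from a single transgenic line in the Col-0 background, p35S::XVE>>pLexA::STZ, in which the 35S promoter, active in most cells, drives an estradiol-dependent activator (XVE) of the zinc finger gene STZ. Seedlings were given ethanol for 24 h (mock), 20 µM estradiol for 6 h or 20 µM estradiol for 24 h, so every group carries the transgene, the 6 h group differs from mock in the length of treatment too, and a line that lacks the transgene was not analysed here. No source used here gives the hour of the day at which treatment began or roots were cut. STZ, estradiol itself and time of day therefore cannot be told apart in the contrasts with mock, which also share the same 3 mock libraries.

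The libraries held 24375822 to 31299634 counted reads, and 1 read stood for 0.0319 to 0.0410 CPM by the raw library total, before TMM. The CPM values below are reads scaled to the library total after TMM normalisation. STZ (AT1G27730), the induced gene, measured 18.8, 22.9 and 29.8 CPM in mock, 1277, 1014 and 1253 CPM at 6 h, and 11844, 12559 and 9578 CPM at 24 h. Its groups did not overlap and followed the labels (log2 change 5.63 ± 0.20 SE at 6 h and 8.89 ± 0.23 at 24 h). Between replicates, the chi-square per gene over all genes was 14.7 (1 and 2), 4.75 (1 and 3) and 13.3 (2 and 3) at 6 h. At 24 h it was 15.1, 17.8 and 23.5 for the same pairs, which did not set replicate 2 apart. By root cell type markers, replicate 2 of the 6 h group and replicate 2 of the 24 h group stood apart from the others of their groups. The summed level of 11 root cell type markers, all of which had reads, was 563 and 549 CPM in these libraries, against 414 to 429 CPM and 410 to 422 CPM in the others of the same groups and 404 to 432 CPM in mock. Most of this excess was in CASP1, at 326 CPM against 198 and 214 CPM at 6 h and 282 CPM against 180 and 170 CPM at 24 h, whereas PLT1, PLT2, WER and SMB were each lower there than in both other libraries of the group. Against mock, WOX5 was called higher at 6 h and 24 h (log2 change 3.01 and 1.36) and SCR at 24 h (1.16), and 0 root markers were called lower. That was 9.09% of the 11 at 6 h and 18.2% at 24 h, beside 13.1% and 35.6% of all genes called. Transcripts of 14 photosynthesis genes, used as markers of green tissue, summed to 272 to 290 CPM in mock, 81.4 to 87.6 CPM at 6 h and 75.3 to 89.0 CPM at 24 h. Of these 14 genes 12 were tested and all 12 were called lower in both contrasts with mock, while RBCS3B was at 0 reads in all 9 libraries and LHCB2.2 had 2 reads over all of them. The photosynthesis markers thus moved in the same contrasts as the morning genes described next, and their part in the clock results was not tested. In such bulk samples, fewer cells of a type and less RNA per cell cannot be told apart.

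Known elements that time clock gene transcription were searched from 500 bases before to 50 bases after the annotated gene start, on both strands of the TAIR10.1 genome (RefSeq). The sites shown are those of genes that the results turn on. The evening element, AAATATCT, occurred in 7 of 12 evening genes, 3 of 16 morning genes and 9.66% of the windows of 27443 protein-coding genes. The sites below are written along the strand of the gene with the element in capitals, which reads AGATATTT where it lies on the other strand. They belong to 5 evening genes and to the morning gene RVE7, with a single site marked per gene. Further evening elements in ELF4, FKF1, GRP7 and RVE7 are not marked, among them a site in lower case within the ELF4 stretch. The distance is counted from the gene start to the first base of the element.
TOC1 (151 bases before the start, plus strand, chr5:24674801-24674830): taaatatcatgAGATATTTtctccaagatg
GRP7 (76 bases before the start, minus strand, chr2:9266615-9266644): tttgacatatgAGATATTTttttgctccac
ELF4 (250 bases before the start, minus strand, chr2:16735185-16735214): cactttacaatAAATATCTttagatatttc
BOA (43 bases before the start, plus strand, chr5:24003834-24003863): atgcgggtaaaAGATATTTtagattatcta
FKF1 (372 bases before the start, plus strand, chr1:25508256-25508285): gcgtttcacaaAAATATCTattatttgacc
RVE7 (317 bases before the start, minus strand, chr1:6308542-6308571): taagactaaagAGATATTTtgaaatcgaat

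The G-box, CACGTG, which reads the same on both strands, occurred in 9 of 16 morning genes, 3 of 12 evening genes and 10.5% of all windows. The CCA1 binding site, AAAAATCT, which differs from the evening element by a single base, occurred in 4 of 16 morning genes, in no window of the 12 evening genes and in 13.6% of all windows. A match is a description of letters in the window and not a bound site. The G-boxes shown here belong to the dawn pair CCA1 and LHY, to RVE2 and PRR9, and to the day gene PRR7. PRR9 has a further G-box that is not shown. Morning genes with a G-box included ones called lower at 6 h and ones not called (LHY, RVE1, LNK1 and CDF2). RVE4, RVE7, CDF3 and COL2 were called lower at 6 h and had none.
CCA1 (193 bases before the start, plus strand, chr2:19245387-19245414): agtgtatcagaCACGTGtcgacaaactg
LHY (80 bases before the start, minus strand, chr1:37935-37962): tacaatatcacCACGTGtcgatctgcga
RVE2 (163 bases before the start, minus strand, chr5:14753235-14753262): aagaaatcctcCACGTGtcattagcatc
PRR9 (172 bases before the start, plus strand, chr2:19232424-19232451): taggttaatgaCACGTGttaaggtggac
PRR7 (201 bases before the start, minus strand, chr5:642215-642242): acccaccattaCACGTGtcagttcaaaa

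After 6 h of estradiol, every clock gene called by adjusted p and fold limit together was a morning gene and was lower than in mock. Of the 16 morning genes 9 were called lower and 0 higher at 6 h, and of the 12 evening genes 0 were called. Calls required an adjusted p under 0.01 and a 1.5-fold or larger change in edgeR's quasi-likelihood test over all genes. By this rule 13.1% of all tested genes were called at 6 h, 5.43% higher and 7.71% lower. The 9 morning genes were CCA1, RVE2, RVE4, RVE7, RVE8, PRR9, LNK2, CDF3 and COL2, and they were all of the clock genes called at 6 h. Among evening genes 6 had an unadjusted p under 0.05, 2 higher and 4 lower, and DESeq2 also called 0. Some clock genes had an adjusted p under 0.01 and missed only the fold limit. These were the evening genes PRR3, higher, and TOC1, ELF4, FKF1 and CHE, lower. PRR7, ZTL and the morning gene LNK1 were lower in this way too. Of the 13 morning genes with an unadjusted p under 0.05, all were lower and 0 higher. The 3 libraries of 1 group lay wholly below those of mock in 13 morning genes and 6 evening genes, and wholly above in 0 and 3, where 28.3% of all genes lay below and 27.4% above (55.7% in all). The median log2 change was −0.78 over morning genes and −0.17 over evening genes, beside 0.00 over all genes tested.

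After 24 h, 14 clock genes were called lower and 1 higher. By then 35.6% of all genes were called, 18% lower and 17.6% higher, so that the 15 called among 32 stood closer to the background than at 6 h. The morning genes called lower were again 9, with LHY in and COL2 out, both day genes joined them, and FKF1, CHE and GRP7 were called lower among evening genes. BOA was the evening gene called higher, which made 4 of 12 evening genes called, near the background. Among morning genes 0 were called higher, and 1, CDF2, was higher at an unadjusted p under 0.05, and DESeq2 called 0 higher. The median log2 change was −0.86 over morning genes and −0.13 over evening genes (−0.01 over all genes). Groups lay wholly below mock for 12 morning and 5 evening genes and wholly above for 1 and 3, beside 34.8% and 35.2% of all genes (70% in all).

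Between 6 h and 24 h few clock genes were called. The contrast compares no mock level, though the mock libraries enter the shared fit and its estimate of spread. PRR9 and CDF3 were called lower at 24 h than at 6 h, ELF4 and BOA were called higher, and the other 28 were not called, where 24.6% of all genes were called, 14.1% higher and 10.5% lower. No morning gene was called higher (3 at an unadjusted p under 0.05) and no evening gene was called lower (5 at an unadjusted p under 0.05), and DESeq2 likewise called 0 of each. The median log2 change was −0.14 for morning genes, −0.13 for evening genes and −0.02 for all genes. Groups lay wholly apart for 17 of the 32 genes, 5 higher and 12 lower at 24 h, beside 31.5% and 28.9% of all genes (60.4% in all). This count of called genes rested on the libraries used. Called higher were 4 clock genes without replicate 2 of the 6 h group, likewise 4 without replicate 3 of the 24 h group, and 1 each without replicate 1 of the 6 h group and without replicate 2 of the 24 h group.

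With an adjusted p under 0.05 and no fold limit, a rule that called 37.7% of all genes at 6 h, 65.3% at 24 h and 57% between them, 21 of the 32 clock genes were called at 6 h, 2 higher and 19 lower, again 21 at 24 h, 2 higher and 19 lower, and 16 between 6 h and 24 h, 5 higher and 11 lower.

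The mean over a class in each library shows the same in single samples. The mean log2 level of the 16 morning genes, set against its mean in mock, was −0.09, 0.02 and 0.07 in the mock libraries, −0.81, −0.57 and −0.77 at 6 h and −0.86, −0.73 and −0.91 at 24 h. Morning genes were low in all 6 estradiol libraries, least so in replicate 2 of each group, the libraries with the high root marker sums above. For the 12 evening genes the same quantity was 0.02, −0.01 and −0.01 in mock, −0.15, −0.17 and −0.07 at 6 h, and −0.16, −0.13 and −0.20 at 24 h. Both estradiol groups lay below mock for evening genes too, by a smaller amount, and the difference between the classes was not tested. Without both of these libraries, a setting added after the data were seen, 11 morning genes were called lower at 6 h (LHY and RVE1 were added) and 9 at 24 h, with median log2 changes of −0.82 and −0.98. Evening genes called lower at 24 h were then 2, and clock genes called lower between 6 h and 24 h were 4, with PRR7 and PRR5 added to PRR9 and CDF3.

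**Figure D1:**
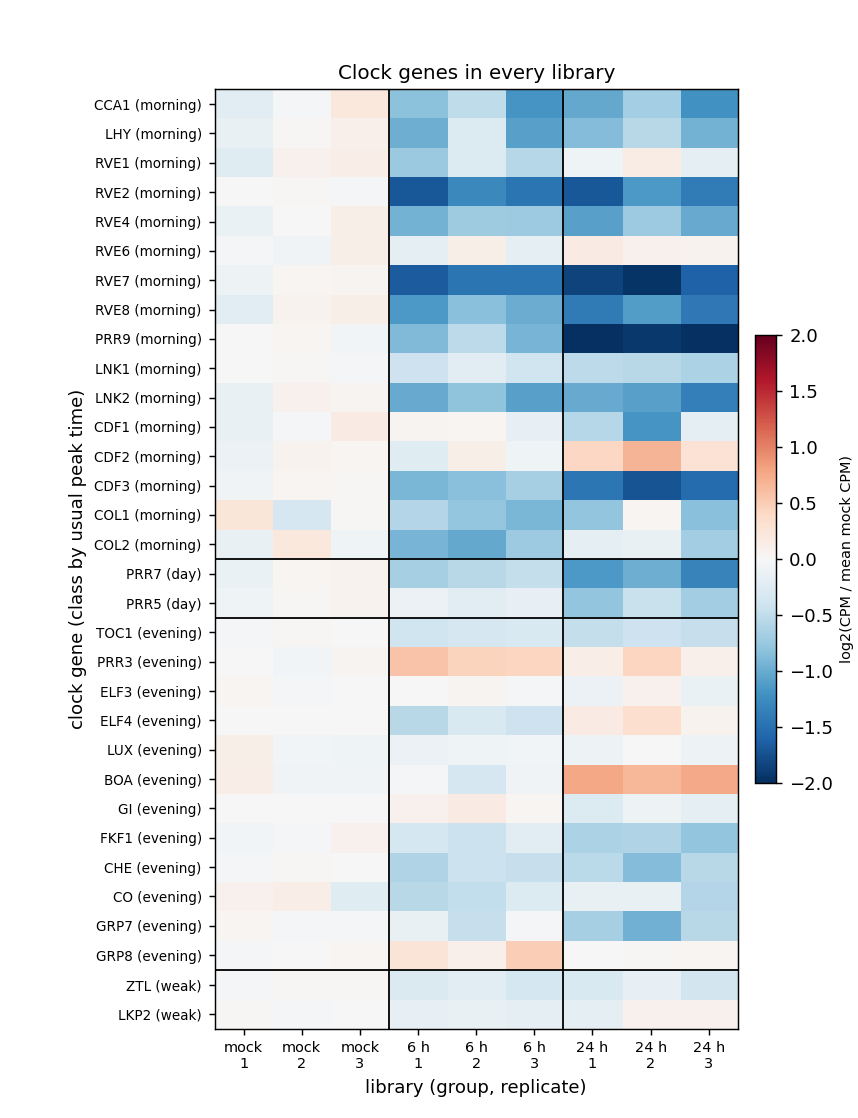
Heat map of log2(CPM / mean mock CPM) for the 32 clock genes (vertical axis, by class) in the 9 libraries (horizontal axis), with blue for lower and red for higher than the mock mean. Blue fills most of the morning block in the 6 h and 24 h libraries, deepest for PRR9 at 24 h (log2 change −2.0), while the evening block is paler, with BOA red at 24 h (0.73).

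The heat map by library shows that RVE6, CDF2 and, at 24 h, RVE1 stayed pale or turned red within the morning block. The dawn pair was at low levels in these roots. In RPKM, reads scaled by exon length and library total so that levels of different genes can be compared, the mock means were 1.95 ± 0.273 (SD, n = 3) for CCA1 and 1.78 ± 0.144 for LHY, where TOC1, their evening counterpart, was at 58.6 ± 1.27. The lowest mock RPKM of the 32 genes was that of CO at 0.313 and the highest that of GRP7 at 962, with a median of 11.6.

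CCA1 (AT2G46830), a MYB-like repressor of evening genes, measured 4.67, 5.30 and 6.27 CPM in mock, 3.05, 3.79 and 2.40 CPM at 6 h, and 2.67, 3.40 and 2.33 CPM at 24 h. All estradiol libraries were below all mock libraries, and the 6 h and 24 h groups overlapped. The log2 change was −0.82 ± 0.19 at 6 h (adjusted p = 0.00575) and −0.96 ± 0.20 at 24 h (adjusted p = 0.00093). The call at 6 h was lost when 1 of replicates 2 or 3 of mock or replicates 1 or 3 of the 6 h group was left out, with log2 changes between −0.98 and −0.66 over all left-out libraries. LHY (AT1G01060), its partner with an overlapping role, measured 5.59, 6.32 and 6.67 CPM in mock, 3.16, 5.15 and 2.93 CPM at 6 h, and 3.40, 4.24 and 3.22 CPM at 24 h. The estradiol libraries again lay below mock, with replicate 2 the highest of each group. LHY was not called at 6 h (log2 change −0.73 ± 0.20, adjusted p = 0.0126) and was called at 24 h (−0.78 ± 0.20, adjusted p = 0.00429). Leaving out replicate 2 or 3 of mock, or replicate 1 or 3 of the 24 h group, ended the 24 h call, with log2 changes of −0.90 to −0.71. At 6 h LHY was called under 8 of 22 alternatives, among them DESeq2, limma-voom, total counts without TMM, a replicate block and leaving out replicate 2 of the 6 h group.

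The REVEILLE genes, which encode MYB-like proteins related to CCA1, split into members with large decreases and members with none that passed the test. RVE7 (AT1G18330), known also as EPR1, measured 40.5, 44.6 and 44.9 CPM in mock, 13.7, 15.8 and 15.7 CPM at 6 h, and 11.97, 11.1 and 14.2 CPM at 24 h. Its mock libraries were the high ones by a wide gap, and the estradiol groups overlapped each other. The log2 change was −1.52 ± 0.10 at 6 h (adjusted p = 8.67e-07) and −1.80 ± 0.10 at 24 h (adjusted p = 2.9e-08). Only 67.6% of RVE7 reads were unique in the genome, the lowest share of the 32 genes, and the calls were the same with unique reads. RVE2 (AT5G37260), known also as CIR1, measured 32.3, 32.9 and 31.8 CPM in mock, 9.98, 13.3 and 11.8 CPM at 6 h, and 9.97, 14.6 and 12.3 CPM at 24 h. The 6 h and 24 h groups covered nearly the same range, well below mock. The log2 change was −1.47 ± 0.13 at 6 h (adjusted p = 7.12e-06) and −1.40 ± 0.13 at 24 h (adjusted p = 1.67e-06).

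RVE8 (AT3G09600), an activator of evening genes, measured 10.3, 12.6 and 12.9 CPM in mock, 5.40, 6.70 and 6.03 CPM at 6 h, and 4.49, 5.47 and 4.42 CPM at 24 h. Mock lay above both estradiol groups, which overlapped. RVE8 fell at both times (log2 change −0.98 ± 0.13, adjusted p = 0.000128, and −1.32 ± 0.13, adjusted p = 3.32e-06). RVE4 (AT5G02840), a close relative of RVE8 with the same role, measured 62.8, 68.4 and 74.8 CPM in mock, 35.8, 42.1 and 41.3 CPM at 6 h, and 32.4, 41.7 and 34.0 CPM at 24 h. It too was high only in mock (log2 change −0.79 ± 0.10, adjusted p = 0.000125, and −0.93 ± 0.10, adjusted p = 7.58e-06). A further relative, RVE6 (AT5G52660), lay between 14.6 and 18.7 CPM in all 9 libraries, and its groups overlapped in every contrast (log2 change −0.08 ± 0.10 at 6 h and 0.11 ± 0.10 at 24 h). RVE1 (AT5G17300), which links the clock to auxin synthesis, was not called either. Its 6 h libraries, at 5.29 to 7.36 CPM, lay below the 7.47 to 9.73 CPM of mock (log2 change −0.52 ± 0.15, adjusted p = 0.0169), and its 24 h libraries overlapped mock (−0.03 ± 0.15).

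**Figure D2:**
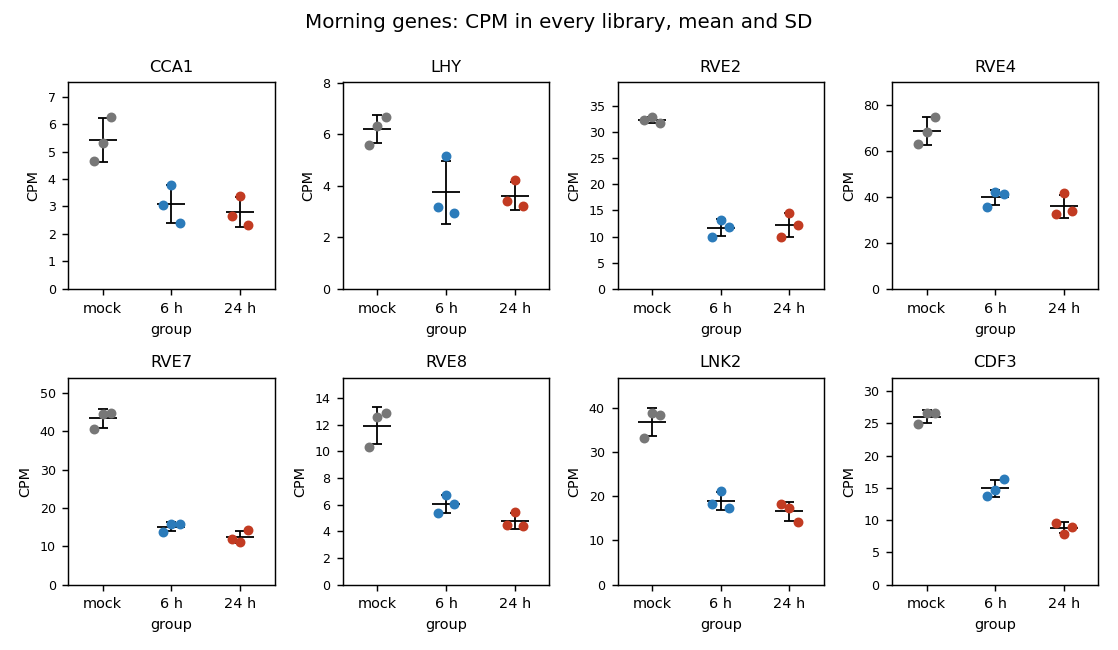
CPM (vertical axis, from 0) of 8 morning genes in the mock, 6 h and 24 h groups, with 1 point per library and the mean with SD (n = 3) as bars. In each of the 8 panels all mock points lie above all estradiol points, with RVE7 at 40.5 to 44.9 CPM in mock and at most 15.8 CPM after estradiol.

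The panels of single morning genes show how little the 6 h and 24 h points differ for most of them, CDF3 excepted. LNK2 (AT3G54500), a coactivator that works with RVE8, measured 33.2, 38.9 and 38.3 CPM in mock, 18.2, 21.1 and 17.4 CPM at 6 h, and 18.3, 17.3 and 14.2 CPM at 24 h. Both estradiol groups were below mock and overlapped each other. LNK2 fell by 0.96 ± 0.11 on the log2 scale at 6 h (adjusted p = 4.33e-05) and by 1.15 ± 0.11 at 24 h (adjusted p = 2.16e-06). Its paralogue LNK1 (AT5G64170) showed a smaller difference that stayed under the fold limit. LNK1 ranged from 49.7 to 51.2 CPM in mock, 37.9 to 43.1 CPM at 6 h and 32.4 to 35.1 CPM at 24 h, with 3 groups that did not overlap (log2 change −0.34 ± 0.07 at 6 h, adjusted p = 0.00212, and −0.57 ± 0.07 at 24 h, adjusted p = 1.31e-05). LNK1 and LNK2 are among the 11 clock genes that a gene on the opposite strand overlaps (the others are RVE1, COL1, COL2, ELF3, LUX, BOA, FKF1, CO and LKP2), and no source used here states whether counting respected strand, so reads of such partners cannot be told apart.

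CDF3 (AT3G47500), a DOF-type repressor of CO, measured 24.8, 26.7 and 26.6 CPM in mock, 13.8, 14.7 and 16.4 CPM at 6 h, and 9.61, 7.86 and 8.999 CPM at 24 h. Its 3 groups did not overlap and went down from mock to 6 h to 24 h. The log2 change was −0.80 ± 0.09 at 6 h (adjusted p = 5.59e-05), −1.56 ± 0.10 at 24 h (adjusted p = 8.23e-08) and −0.76 ± 0.10 between them (adjusted p = 5.57e-05). Its relatives CDF1 and CDF2, which also repress CO, were not called in any contrast. CDF1 (AT5G62430) had few reads, 25 to 89 per library. It was at 2.24 to 2.80 CPM in mock, 2.22 to 2.61 CPM at 6 h and 1.10 to 2.21 CPM at 24 h (log2 change −0.57 ± 0.22 at 24 h, adjusted p = 0.0384). CDF2 (AT5G39660) went the other way at 24 h, from 15.97 to 18.3 CPM in mock to 21.2 to 27.7 CPM without overlap (log2 change 0.47 ± 0.12, adjusted p = 0.00369), under the fold limit.

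Of the B-box genes related to CO, COL2 (AT3G02380) measured 5.96, 7.68 and 6.27 CPM in mock, 3.50, 3.28 and 4.02 CPM at 6 h, and 5.79, 5.96 and 4.11 CPM at 24 h. The 6 h libraries were the low ones, and the 24 h libraries were between them and mock. COL2 was called lower at 6 h (log2 change −0.88 ± 0.17, adjusted p = 0.0015) and not at 24 h (−0.33 ± 0.16, adjusted p = 0.0889), and the contrast of 24 h with 6 h was not called (0.55 ± 0.17, adjusted p = 0.0154). COL1 (AT5G15850) had few reads, 21 to 47 per library, and was not called (log2 change −0.75 ± 0.27 at 6 h, adjusted p = 0.0498). CO (AT5G15840), the flowering regulator, had 16 to 30 reads per library and was not called (−0.43 ± 0.25 at 6 h). FT, the gene that CO activates in leaves, had 0 reads in all 9 libraries.

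The pseudo-response regulators repress CCA1 and LHY and usually peak in the order PRR9, PRR7, PRR5, PRR3 and TOC1, and at 24 h the early members were further below mock than the late ones. The log2 changes from mock at 24 h were −2.0 ± 0.12 for PRR9, −1.15 ± 0.09 for PRR7, −0.64 ± 0.09 for PRR5, 0.22 ± 0.10 for PRR3 and −0.45 ± 0.06 for TOC1. PRR3, which lay above mock, thus breaks a gradient along the peak order, and differences between the genes were not tested. PRR9 (AT2G46790), the earliest, measured 22.6, 23.2 and 21.6 CPM in mock, 12.1, 15.7 and 11.8 CPM at 6 h, and 5.58, 5.91 and 5.35 CPM at 24 h. Its groups did not overlap and went down at each step. PRR9 was called in all 3 contrasts (log2 change −0.77 ± 0.11 at 6 h, adjusted p = 0.000205; adjusted p = 4.61e-08 at 24 h; −1.23 ± 0.12 between 6 h and 24 h, adjusted p = 4.59e-06). At 24 h it had the largest log2 decrease of the 32 genes, 4.00-fold below mock. Of its reads 74.8% were unique, and the calls were the same with unique reads.

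PRR7 (AT5G02810) measured 115, 129 and 132 CPM in mock, 79.0, 85.1 and 90.3 CPM at 6 h, and 56.7, 63.8 and 49.8 CPM at 24 h. These groups too did not overlap. PRR7 was called at 24 h (adjusted p = 6.59e-07), while at 6 h its log2 change of −0.57 ± 0.09 (adjusted p = 0.000614) was just under the fold limit. PRR5 (AT5G24470) measured 50.01, 53.8 and 55.8 CPM in mock, 49.1, 45.9 and 47.4 CPM at 6 h, and 30.7, 39.1 and 32.9 CPM at 24 h. The 24 h libraries were low, whereas the highest 6 h library came within 1 CPM of the lowest mock library. PRR5 was called at 24 h (adjusted p = 3.89e-05) and not at 6 h (log2 change −0.16 ± 0.09, adjusted p = 0.149), and without replicate 1 of the 24 h group the 24 h value was −0.57 and no longer called. Neither day gene was called at 6 h or between 6 h and 24 h, where 1 and 2 of the pair passed an unadjusted p of 0.05 and DESeq2 called 0.

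TOC1 (AT5G61380), the evening member and a repressor of CCA1, lay at 162 to 171 CPM in mock, 128 to 135 CPM at 6 h and 120 to 125 CPM at 24 h. Its groups did not overlap, and the differences stayed under the fold limit (log2 change −0.35 ± 0.06, adjusted p = 0.000791, and −0.45 ± 0.06, adjusted p = 2.94e-05). PRR3 (AT5G60100), whose protein shields TOC1 from breakdown, was the one PRR gene on the other side of mock. It lay at 18.5 to 20.0 CPM in mock, 26.1 to 28.7 CPM at 6 h and 20.6 to 26.04 CPM at 24 h, above mock without overlap at both times and not called (log2 change 0.49 ± 0.09 at 6 h, adjusted p = 0.00183).

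**Figure D3:**
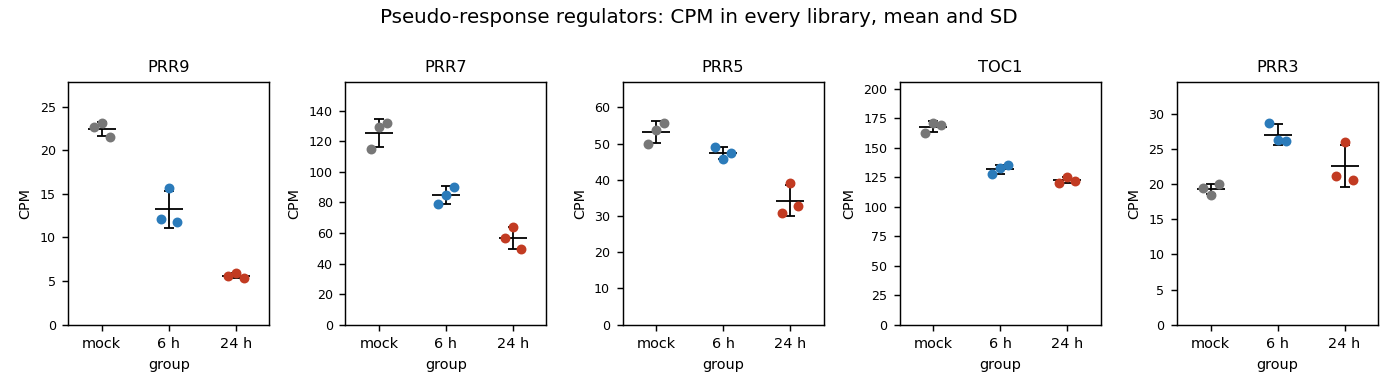
CPM (vertical axis, from 0) of the 5 PRR genes, from PRR9 (usual peak in the morning) to TOC1 and PRR3 (evening), in the mock, 6 h and 24 h groups, with 1 point per library and the mean with SD (n = 3) as bars. PRR9 steps down from 21.6 to 23.2 CPM in mock to 5.35 to 5.91 CPM at 24 h, TOC1 keeps most of its level, and PRR3 lies above mock at 6 h.

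The panels of the PRR genes set the steps of PRR9 beside the narrow range of TOC1. Of the evening complex, the night-time repressor of PRR9 and other morning and day genes, ELF3 and LUX kept their levels. ELF3 (AT2G25930) lay between 84.0 and 97.2 CPM in all 9 libraries and LUX (AT3G46640) between 76.0 and 89.5 CPM, each with overlapping groups (log2 change at 24 h −0.05 ± 0.07 for ELF3 and −0.07 ± 0.07 for LUX). ELF4 (AT2G40080), the small subunit of the complex, measured 82.2, 81.8 and 83.3 CPM in mock, 55.9, 67.1 and 62.0 CPM at 6 h, and 92.0, 104 and 86.5 CPM at 24 h. Its 6 h libraries were below mock and its 24 h libraries above it, with no overlap among the groups. ELF4 was called only between 6 h and 24 h (log2 change 0.61 ± 0.08, adjusted p = 6.74e-05), not against mock (−0.42 ± 0.08 at 6 h, adjusted p = 0.00206, and 0.19 ± 0.08 at 24 h, adjusted p = 0.0585). This call sat at the fold limit and was lost with total counts in place of TMM, in the RPKM values and without replicate 1 of the 6 h group or replicate 2 of the 24 h group, with log2 changes of 0.53 to 0.68 over left-out libraries.

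BOA (AT5G59570), also named NOX, is the closest relative of LUX. It measured 8.43, 7.28 and 7.34 CPM in mock, 7.59, 6.07 and 7.30 CPM at 6 h, and 13.1, 12.2 and 13.0 CPM at 24 h. The 24 h libraries stood above the other 6, which overlapped. BOA rose by 24 h (log2 change 0.73 ± 0.11 from mock, adjusted p = 7.25e-05, and 0.87 ± 0.11 from 6 h, adjusted p = 3.58e-05) and had changed by −0.13 ± 0.11 at 6 h. Both calls were lost with limma on log2(RPKM + 1), a scale that shrinks changes of low genes, where the log2 changes were 0.47 and 0.58. In RPKM it stayed far under LUX, at 3.25 ± 0.26 (SD, n = 3) against 18.6 ± 0.235 at 24 h.

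Of the remaining evening genes, FKF1 (AT1G68050), a blue-light F-box protein that marks CDF proteins for breakdown, measured 22.3, 22.5 and 24.4 CPM in mock, 18.1, 17.0 and 19.7 CPM at 6 h, and 14.9, 15.2 and 13.3 CPM at 24 h. The groups did not overlap and went down in order. FKF1 was called at 24 h (log2 change −0.67 ± 0.09, adjusted p = 2.89e-05), and the 6 h difference was under the fold limit (−0.34 ± 0.09, adjusted p = 0.0094). CHE (AT5G08330), a TCP-family repressor of CCA1, measured 17.2, 17.8 and 17.6 CPM in mock, 11.6, 13.0 and 12.7 CPM at 6 h, and 12.04, 9.62 and 11.9 CPM at 24 h. Both estradiol groups lay below mock and overlapped. CHE was called at 24 h (−0.64 ± 0.10, adjusted p = 0.000104) and not at 6 h (−0.49 ± 0.10, adjusted p = 0.00204), and without replicate 2 of the 24 h group the 24 h value was −0.55 and not called.

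GI (AT1G22770), a large protein that works with ZTL and FKF1, lay at 183 to 185 CPM in mock, 188 to 205 CPM at 6 h and 152 to 172 CPM at 24 h. All 6 h libraries were above mock and all 24 h libraries below it, by amounts under the fold limit. The log2 change was 0.09 ± 0.07 at 6 h (adjusted p = 0.304) and −0.19 ± 0.07 at 24 h (adjusted p = 0.0275). ZTL (AT5G57360), the F-box protein that targets TOC1 and PRR5, lay at 47.2 to 49.1 CPM in mock, 37.8 to 41.7 CPM at 6 h and 37.7 to 43.3 CPM at 24 h (−0.29 ± 0.07 and −0.27 ± 0.07). Its relative LKP2 (AT2G18915) lay between 21.4 and 25.9 CPM throughout. Neither was called in any contrast. At an unadjusted p under 0.05, 1 of the pair was lower at 6 h, 1 was lower at 24 h and 0 differed between 6 h and 24 h, and DESeq2 called 0 in each.

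GRP7 and GRP8, also named CCR2 and CCR1, encode similar RNA-binding proteins that the clock drives to an evening peak, and their levels were the highest of the set. GRP7 (AT2G21660) measured 1171, 1128 and 1129 CPM in mock, 1031, 831 and 1127 CPM at 6 h, and 721, 587 and 776 CPM at 24 h. The 24 h libraries were low, and the 6 h libraries spread from near mock down to replicate 2. GRP7 was called at 24 h (log2 change −0.72 ± 0.12, adjusted p = 0.000261) and not at 6 h (−0.20 ± 0.12, adjusted p = 0.228). GRP8 (AT4G39260) lay at 722 to 761 CPM in mock, 799 to 1038 CPM at 6 h and 743 to 758 CPM at 24 h, above mock without overlap at 6 h, overlapping it at 24 h, and not called (0.29 ± 0.09 and 0.02 ± 0.09). The ratio of GRP7 to GRP8 in RPKM was 1.54, 1.45 and 1.41 in mock, 1.11, 0.986 and 1.03 at 6 h, and 0.921, 0.736 and 0.970 at 24 h. The ratio thus went down without overlap from mock to 6 h to 24 h, and GRP8 became the gene with the highest RPKM of the set at 24 h (634 ± 27.8, SD, n = 3, against 557 ± 100 for GRP7).

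**Figure D4:**
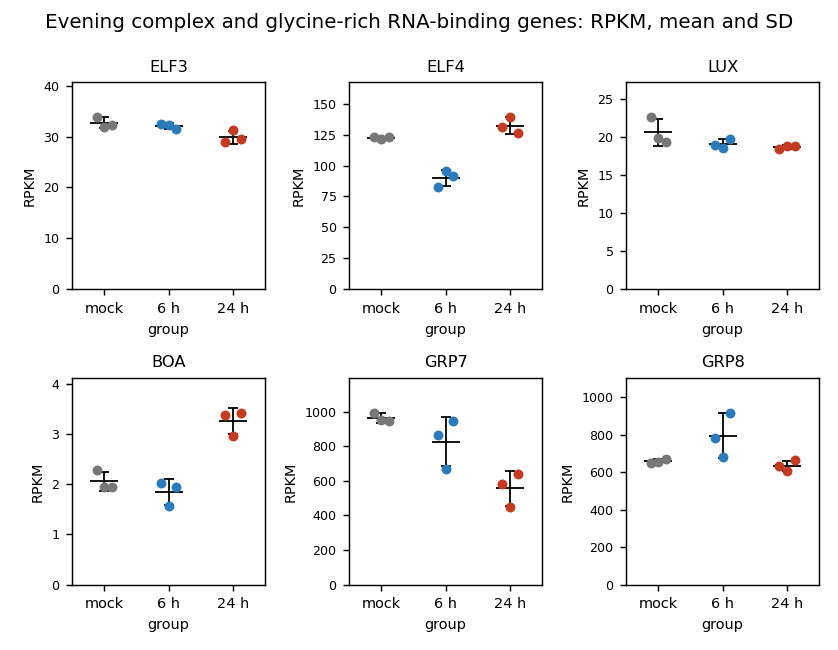
RPKM (vertical axis, from 0) of the evening complex genes ELF3, ELF4 and LUX, of BOA, and of GRP7 and GRP8 in the mock, 6 h and 24 h groups, with 1 point per library and the mean with SD (n = 3) as bars. BOA stands higher at 24 h (mean 3.25) than in mock (2.06), ELF4 dips at 6 h (90.0 against 123 in mock), and GRP7 is lower at 24 h (557 against 962).

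The panels of evening genes in RPKM show that members of this class went in different directions, in contrast with the morning class at 6 h, where all 16 log2 changes were below 0 with every library in the fit (CDF1 turned to 0.049 without 6 h replicate 3 and 0.070 without mock replicate 3, and CDF2 to 0.023 without 6 h replicate 1). A plot of the log2 changes sets the 2 contrasts with mock, which share the mock libraries, side by side for each gene.

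**Figure D5:**
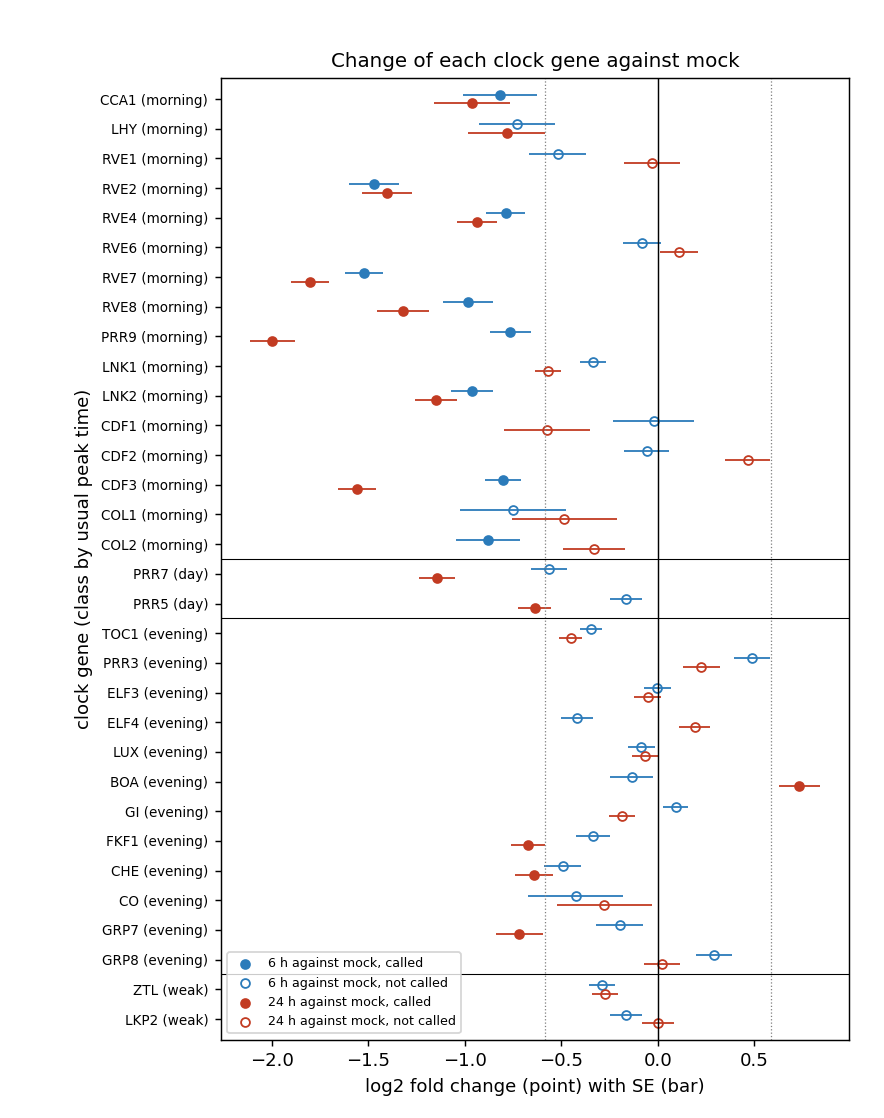
Log2 change from mock (horizontal axis, point) with its SE (bar) for the 32 clock genes at 6 h (blue) and 24 h (red), with filled points for called genes and dotted lines at the 1.5-fold limit. Filled points at 6 h occur only among morning genes, from RVE7 (−1.52) to PRR9 (−0.77), and the single filled point right of 0 is BOA at 24 h (0.73).

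Outside the 32 genes, 30 further genes tied to the clock or its light input were read from a list, of which 27 were tested. At 6 h 1 was called higher and 2 lower, at 24 h 1 higher and 5 lower, and between 6 h and 24 h 2 higher and 1 lower. With both directions together, 11.1%, 22.2% and 11.1% were called, beside 13.1%, 35.6% and 24.6% of all genes. The 5 of 27 called lower at 24 h stood near the 18% of all genes. The catalase gene CAT3 (AT1G20620), whose transcript peaks in the evening, fell from 205, 219 and 207 CPM in mock to 91.6, 69.6 and 92.9 CPM at 6 h and 62.5, 51.0 and 60.1 CPM at 24 h (log2 change −1.31 ± 0.11, adjusted p = 5.04e-06, and −1.86 ± 0.11, adjusted p = 5.77e-08). CAT2 (AT4G35090), its morning counterpart, rose between 6 h (405, 515 and 406 CPM) and 24 h (670, 844 and 621 CPM; log2 change 0.69 ± 0.12, adjusted p = 0.000509), a call lost without replicate 2 of the 24 h group. CAT3 lay below mock in all 6 estradiol libraries, and the 6 h and 24 h groups of CAT2 did not overlap.

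COR27 (AT5G42900), a cold-induced repressor of clock genes, measured 4.05, 3.71 and 5.26 CPM in mock, 5.81, 6.22 and 6.66 CPM at 6 h, and 17.3, 20.3 and 15.2 CPM at 24 h. It rose by 24 h (log2 change 2.01 ± 0.15, adjusted p = 2.43e-07) with no overlap between groups. LNK4 (AT5G06980), a shorter relative of LNK1 and LNK2, fell late, from 6.00, 5.95 and 5.45 CPM in mock and 4.28, 4.27 and 5.36 CPM at 6 h to 1.82, 1.5 and 0.892 CPM at 24 h (−2.03 ± 0.21, adjusted p = 3.67e-06). SIGE (AT5G24120), a chloroplast sigma factor, and CRY1 (AT4G08920), a blue-light receptor, were called lower at 24 h (−1.05 ± 0.11, adjusted p = 4.31e-06, and −0.63 ± 0.07, adjusted p = 1.07e-05), CRY1 no longer so without replicate 1 of the 24 h group. CDF4 (AT2G34140), unlike CDF3, was called higher at 6 h (0.90 ± 0.11, adjusted p = 8.93e-05). The growth regulator PIF4 (AT2G43010) had 12, 24 and 17 reads in mock, 1, 1 and 7 at 6 h, and 0, 1 and 3 at 24 h, and was called lower in both contrasts with mock (−2.41 ± 0.62, adjusted p = 0.00978, and −3.41 ± 0.74, adjusted p = 0.00142). At these counts the 6 h call was lost under 9 of the 20 alternatives that gave a value.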

How the data were processed

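Total RNA from roots was sequenced as stranded, poly(A)-selected libraries. Reads were mapped by the authors in CLC Genomics Workbench against TAIR10, and they deposited counts of total and of unique exon reads per gene and library. RPKM (reads scaled by exon length and mapped total) and TPM values were deposited as well, of which TPM was not used here. No source used here states whether counting respected strand.

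Total counts of all 9 libraries entered a single edgeR 4.0.16 fit (R 4.3.3; TMM, filterByExpr, glmQLFit and glmQLFTest), and p-values were Benjamini-Hochberg adjusted over 20272 genes. Genes were called at an adjusted p under 0.01 and at least 1.5-fold. Standard errors (SE) were taken as the size of the log2 change divided by the root of its F statistic. The biological coefficient of variation was 0.0909. With 3 libraries a group, an exact permutation test cannot go below a two-sided p of 0.1, so single genes were tested only in the fit across all genes. Steps were tested on simulated data.

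The labels call replicates biological, and no source used here says that they were sown separately, so the p-values cover the spread of these samples alone and may be technical in part. Within groups, counts differed beyond sampling noise (chi-square per gene 3.09 to 23.5), and every library counted as a replicate. The libraries carry no molecular identifiers. Same-numbered 6 h and 24 h libraries deviated together from their group means (correlation 0.15 to 0.33 over genes), which pairs them by the data only, and mock libraries did so with either estradiol group only for replicate 1 (−0.05 to 0.15 in all). The sources differ on the portion of root that was cut.

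The member genes, peak classes and lists were chosen with earlier results of these data known. Named are STZ, all 32 clock genes, with values in every library for each one called in at least 1 contrast, and, of the 30 further clock-tied genes, up to 8 called ones by smallest p. FT, which has no reads, and the marker genes RBCS3B, LHCB2.2, CASP1, PLT1, PLT2, WER, SMB, WOX5 and SCR were named after their values were seen. The motif window was not set in advance of the fit. Alternatives were DESeq2 1.42.0 or limma-voom (limma 3.58.1), other scalings, filters and thresholds, unique reads, RPKM values, fits of 2 groups, a replicate block and leaving out each library.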

Additional observations from a re-analysis of the deposited data

Results flagged for a closer look

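Looked at were the 32 clock genes, STZ and the called further clock-tied genes named above. The contrast of 24 h with 6 h in edgeR's quasi-likelihood test called 24.6% of all genes tested and 12.5% of the 32 clock genes. By this contrast, the change from mock differed between 6 h and 24 h for 8 of the genes looked at. On the log2 scale this difference was −1.23 for PRR9, −0.76 for CDF3, 0.61 for ELF4 and 0.87 for BOA among the 32 clock genes, and −1.71 for LNK4, 1.49 for COR27 and 0.69 for CAT2 among the further clock-tied genes. For STZ, the induced gene, it was 3.26. GI was flagged by sign alone. All 3 libraries at 6 h lay above the mock range and all 3 at 24 h below it. The difference between 6 h and 24 h was −0.28, under the fold limit (adjusted p = 0.00385). Against mock the adjusted p of GI was 0.304 at 6 h and 0.0275 at 24 h. Groups lay apart from mock for 55.7% of all genes at 6 h and 70% at 24 h. ELF4, listed above, also changed sides, from below mock at 6 h to above it at 24 h.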

How the results depend on the processing

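Of 123 single-gene results, none of those called changed sign under an alternative that gave a value. Of 2795 comparisons with an alternative, 2625 kept their sign and side of the threshold, 46 changed sign, in 13 results that were not called on either side, 31 lost a call and 93 gained one, 39 of these with an adjusted p under 0.05 and no fold limit. Fits with a replicate block gave 0 genes higher and 10 lower at 6 h (LHY was added), 1 and 14 at 24 h, and 2 and 2 between 6 h and 24 h, and changed no other call.

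With an adjusted p under 0.05 and no fold limit, 2 clock genes were called higher and 19 lower at 6 h (2 and 4 of them evening genes). At 24 h 2 were then higher, 1 of them a morning gene, and 5 evening genes were lower. Between 6 h and 24 h 5 were higher and 11 lower (morning 3 and 4, evening lower 5). With limma on log2(RPKM + 1) the morning median was −0.56 at 6 h and −0.60 at 24 h, 0 clock genes and 0 evening genes were higher at 24 h or between 6 h and 24 h, and the evening median between 6 h and 24 h was −0.18. With log2(RPKM + 0.1) that contrast had 1 clock gene higher, an evening gene, and an evening median of −0.21. Total counts without TMM likewise left 1 higher, an evening gene, with evening medians of −0.21 at 24 h and −0.17 between 6 h and 24 h. A stricter filter moved the morning median at 24 h to −1.06. Without replicate 2 of both estradiol groups, added after seeing the data, 4 clock genes were lower between 6 h and 24 h. The causes were not tested.

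Leaving out each library in turn gave 0 higher and 8 to 11 lower clock genes at 6 h, 1 higher and 13 to 14 lower at 24 h, and 1 to 4 higher and 2 to 3 lower between 6 h and 24 h. For morning genes the counts were 0 higher and 8 to 11 lower, 0 higher and 8 to 9 lower, and 0 to 2 higher and 2 lower. For evening genes they were 0 and 0, 1 higher and 2 to 3 lower, and 1 to 2 higher and 0 to 1 lower. The medians ranged from −0.82 to −0.68, −0.98 to −0.78 and −0.23 to −0.03 for morning genes, and from −0.23 to −0.07, −0.18 to −0.10 and −0.16 to −0.10 for evening genes. CCA1, LHY, CDF1, COL1 and CO had few reads, which limits what can be said of them.

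The following are the log2 changes of the 13 results that changed sign. With total counts GRP8 at 24 h was at −0.056, LKP2 at 24 h at −0.077, and LUX and ZTL between 6 h and 24 h at −0.027 and −0.031. With log2(RPKM + 1) these were −0.055, −0.071, −0.032 and −0.036, and with log2(RPKM + 0.1) −0.055, −0.078, −0.033 and −0.038. LKP2 at 24 h was also at −0.0016 with no filter, −0.0067 with limma-voom, −0.00073 with the replicate block and −0.020 with the stricter filter, which put ZTL between 6 h and 24 h at −0.00041. ELF3 at 6 h was at 0.011 with DESeq2 size factors and 0.011 with DESeq2, and at 0.0014 with library sizes that left out rRNA, organellar genes and STZ. With libraries left out, singly or replicate 2 of both estradiol groups, the ranges at 6 h were −0.092 to 0.070 for CDF1, −0.15 to 0.023 for CDF2 and −0.024 to 0.020 for ELF3. At 24 h they were −0.14 to 0.040 for RVE1 and −0.044 to 0.086 for LKP2. Between 6 h and 24 h they were −0.30 to 0.041 for CCA1, −0.21 to 0.25 for LHY, −0.073 to 0.20 for RVE2, −0.070 to 0.41 for COL1, −0.023 to 0.039 for LUX, −0.044 to 0.062 for ZTL and −2.24 to 0.45 for PIF4.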
